A study of Rattus norvegicus with 12 samples.

Results

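Oxidative phosphorylation genes are described here in rat liver, as measured on Affymetrix rat genome arrays. They were chosen by symbol: every gene whose symbol begins with Nduf, Uqcr, Cox4 to Cox8 or Atp5, together with Sdha, Sdhb, Sdhc, Sdhd, Cyc1 and Cycs, each read from its brightest probe set (the group of probes that reports 1 transcript). This gave 83 genes of the 13911 with a single symbol on the array. Pieces of the right liver lobe came from Sprague-Dawley rats labelled as 12 weeks old, and formed 4 groups of 3 arrays: normal liver at 0h, and liver of animals that received a high-fat emulsion over 2, 4 or 6 weeks as a model of nonalcoholic fatty liver disease (2w, 4w and 6w). The labels call the 3 samples of a group technical replicates and how many rats each group represents is not stated in these sources, so p-values measure only the spread between these arrays. The 0h group was the only unfed one, so feeding and elapsed time cannot be told apart.

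Oxidative phosphorylation takes place in the inner mitochondrial membrane. Complex I accepts electrons from NADH and complex II from succinate, ubiquinone carries them to complex III, cytochrome c carries them to complex IV, and complex IV passes them to oxygen. Complexes I, III and IV pump protons, and complex V (ATP synthase) uses the returning protons to make ATP. Hepatocytes are rich in mitochondria and burn fatty acids through this chain. Most subunits are encoded in the nucleus and are the genes measured here; the core of complexes I, III, IV and V also contains subunits encoded by mitochondrial DNA.

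Of the 83 genes, 35 encode subunits of complex I, 4 of complex II, 8 of complex III, 1 is cytochrome c, 17 belong to complex IV and 15 to complex V. The other 3 carry a matching symbol but are no subunit: Ndufaf1 is an assembly factor, Atp5sl is now Dmac2, and Cox4nb is now Emc8, a part of the membrane protein complex of the endoplasmic reticulum. Atp5s (coupling factor B, now Dmac2l) was kept with complex V, and Cox6c1, now annotated as a pseudogene of Cox6c, with complex IV. The counts of those complexes include them. Of these 83, 80 passed a filter on dim signal (a mean log2 signal above 5.45, the 30th percentile of all probe sets). The 3 that did not pass, Cox6a2, Cox6b2 and Cox8b, are the isoforms of complex IV known from heart and skeletal muscle or from testis, and were listed at signals of at most 95.7 on every array. Old symbols are kept as deposited; 20 have since changed, for example Atp5b to Atp5f1b and Uqcr to Uqcr11.

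The arrays had median signals of 117.6 to 130.0 as deposited, and correlated at 0.973 to 0.980 within groups and 0.953 to 0.972 between groups across genes, which are not independent replicates. Within a group the genes of oxidative phosphorylation varied with a median SD of 0.06 log2 units, against 0.16 for all 11332 genes tested. Among liver cell markers, of 10 hepatocyte genes 1 was higher and 1 lower at 2w, 0 and 2 at 4w, and 0 and 3 at 6w, against 0h; their summed signal was 246454 to 280119 at 0h, 251072 to 270311 at 2w, 241086 to 287974 at 4w and 230142 to 261582 at 6w. Of 10 stellate cell genes, 8, 1 and 2 were higher and 0, 0 and 3 lower at 2w, 4w and 6w. Of 10 macrophage genes, 4, 1 and 0 were higher and 0, 7 and 3 lower. Of 10 endothelial genes, 2, 0 and 0 were higher and 0, 3 and 3 lower, of 11 tested lymphocyte genes 0, 0 and 1 were higher and 2, 6 and 1 lower, and of 4 tested red cell genes 3, 1 and 1 were higher and none lower. Of 14 striated muscle genes 4 passed the filter and none was called in any fed group. The GAPDH control probes, which compare the 3′ with the 5′ end of the transcript as a measure of RNA integrity, gave a log2 ratio of 0.47 ± 0.03 at 2w, 0.33 ± 0.03 at 4w and 0.33 ± 0.04 at 6w, against 0.16 ± 0.08 at 0h (SD, n = 3 each). The same ratio of the actin control probes was 1.42 ± 0.12 at 2w, 1.18 ± 0.22 at 4w and 1.44 ± 0.07 at 6w, against 1.23 ± 0.18 at 0h. The part of the cell markers and of RNA integrity in the results below was not tested, and in bulk tissue fewer cells of a type and less RNA per cell cannot be told apart.

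Most changes of the oxidative phosphorylation genes were increases of less than 1.5-fold. They were most frequent at 4w in the signals as deposited, but not with quantile normalization, where 24, 28 and 30 genes were higher at 2w, 4w and 6w. Relative to 0h, 28 of the 80 genes were higher and 4 lower at 2w (limma with Benjamini-Hochberg adjustment over all genes, adjusted p under 0.05), where 15.5% of all genes tested were called higher and 12.6% lower. At 4w, 46 were higher and 1 lower, beside 14.3% and 15.1% of all genes. At 6w, 31 were higher and 2 lower, beside 14.7% and 12.6% of all genes. The median log2 change of the 80 genes was 0.12 at 2w, 0.22 at 4w and 0.15 at 6w, while that of all genes tested was 0.01, -0.03 and 0.00. Higher calls made up 48.6% of all calls among all genes at 4w, and 62.9% when each array was centred on its median. The log2 change was positive for 57, 72 and 67 of the 80, beside 5756, 5290 and 5736 of all 11332 genes tested.

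These genes are bright, and bright genes were called more often than others. Of the 80, 71 had a mean log2 signal above 11. Of those, 39.4% were higher at 2w, 64.8% at 4w and 43.7% at 6w, whereas among all 1976 genes above the same level 31.6%, 38.6% and 32.2% were higher. The share of the oxidative phosphorylation genes was thus closer to that of other bright genes at 2w and 6w than at 4w. The median log2 changes of the 71 were 0.13, 0.24 and 0.16 at 2w, 4w and 6w, beside 0.08, 0.13 and 0.07 for all 1976 bright genes. The log2 change was positive for 54, 70 and 64 of the 71, beside 1239, 1382 and 1206 of the 1976. With quantile normalization between arrays the count at 4w was 28 in place of 46, and all 28 were among the 46; the count at 2w was 24 and at 6w 30. Without 2w replicate 1 the count at 2w was 17.

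**Figure D1:**
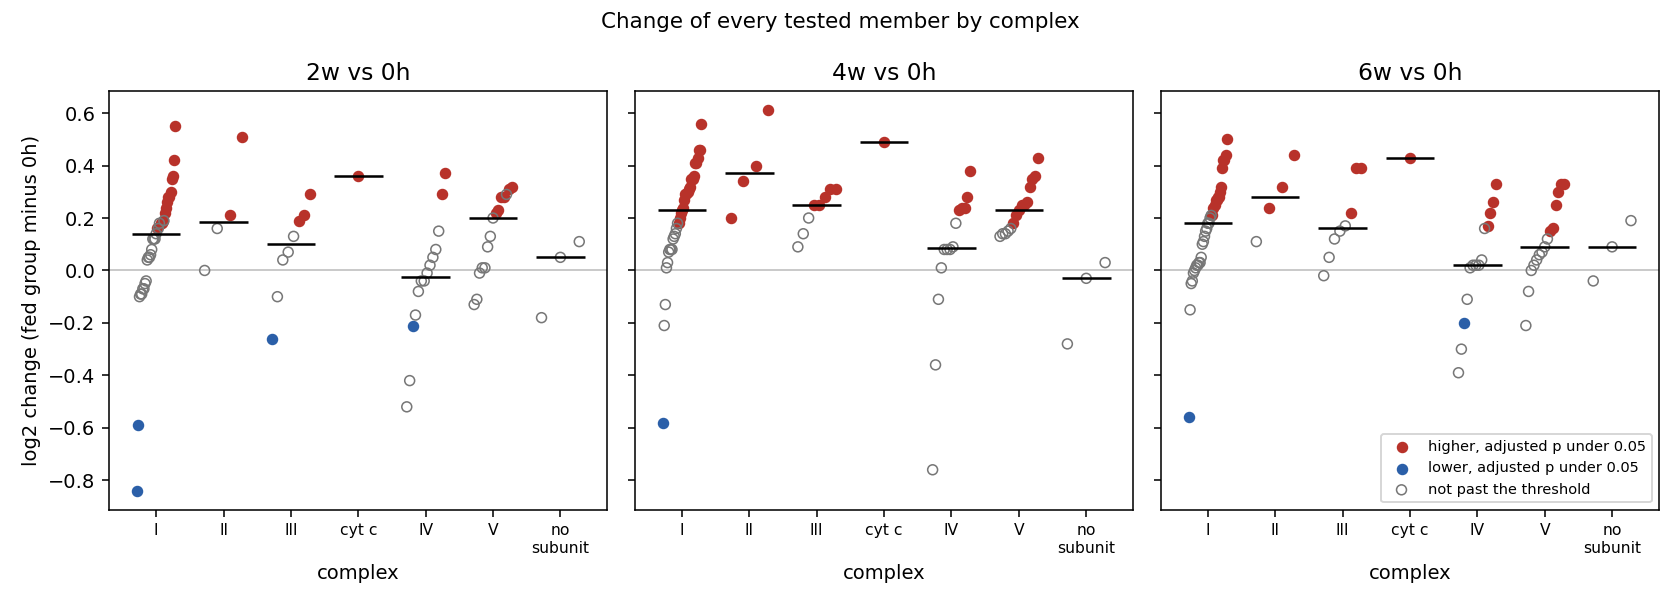
Log2 change of each of the 80 tested genes against 0h (vertical axis), grouped by complex (horizontal axis), with 1 panel for each fed group and genes ordered by size within a complex. Filled red points passed the threshold as higher, filled blue points as lower, open points did not pass, and the bar is the median of the complex; the medians of complex IV lie at -0.03, 0.09 and 0.02, below those of complexes I, II, III and V at 2w, 4w and 6w.

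The complexes differed in how many of their genes passed the threshold. All 4 complex II genes were higher at 4w, 2 at 2w and 3 at 6w, with median log2 changes of 0.18, 0.37 and 0.28 at 2w, 4w and 6w. Of the 35 complex I genes, 14, 21 and 14 were higher (medians 0.14, 0.23 and 0.18) and 2, 1 and 1 lower. Of the 8 complex III genes, 3, 5 and 3 were higher (medians 0.10, 0.25 and 0.16) and 1 was lower at 2w. Of the 15 complex V genes, 6, 10 and 6 were higher (medians 0.20, 0.23 and 0.09) and none lower, although with quantile normalization 2 were lower at 2w and 1 at 6w. Of the 14 tested complex IV genes, 2, 5 and 4 were higher, 1 was lower at 2w and 1 at 6w, and the medians were -0.03, 0.09 and 0.02. With quantile normalization 15 complex I, 3 complex II, 3 complex III and 4 complex V genes were higher at 4w, with medians of 0.13, 0.28, 0.10 and 0.11, and 1 complex III gene was higher at 2w. The count of complex IV at 4w was then 2. The median of complex IV at 4w was -0.03 with quantile normalization, and at 2w it was 0.00 when each array was centred on its median; the medians of the other complexes stayed above 0 under both scalings. No test of the difference between complexes was made.

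Averaged over its genes, each complex gave 1 value per array. For complex II the mean log2 signal stood above the mean of the 0h arrays by 0.22 ± 0.00 at 2w, 0.39 ± 0.04 at 4w and 0.28 ± 0.03 at 6w (SD, n = 3 arrays each), with 0h arrays between -0.01 and 0.02. For complex I these differences were 0.09 ± 0.03, 0.20 ± 0.04 and 0.15 ± 0.02, and for complex III 0.07 ± 0.03, 0.23 ± 0.01 and 0.18 ± 0.02. Complex V differed by 0.14 ± 0.06, 0.24 ± 0.08 and 0.11 ± 0.02. In complexes I, II, III and V all 9 fed arrays lay above all 3 of the 0h arrays, while in complex IV the fed arrays, at -0.04 ± 0.04, 0.05 ± 0.05 and 0.02 ± 0.09, overlapped the 0h arrays at each time. The 14 genes averaged for complex IV include Cox4i2 and Cox6c1, both at low signal. Their mean log2 signals were 6.2 and 7.83 at 0h, 5.79 and 7.31 at 2w, 5.44 and 7.47 at 4w, and 5.9 and 7.45 at 6w. They thus lowered the complex IV average in each fed group. Averaged over the other complex IV genes, the 2w arrays still overlapped 0h, but all 4w and 6w arrays lay above it. The overlap at 4w and 6w therefore rests on these 2 genes. The mean over all genes tested differed by 0.01 ± 0.02, -0.05 ± 0.01 and 0.00 ± 0.02.

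**Figure D2:**
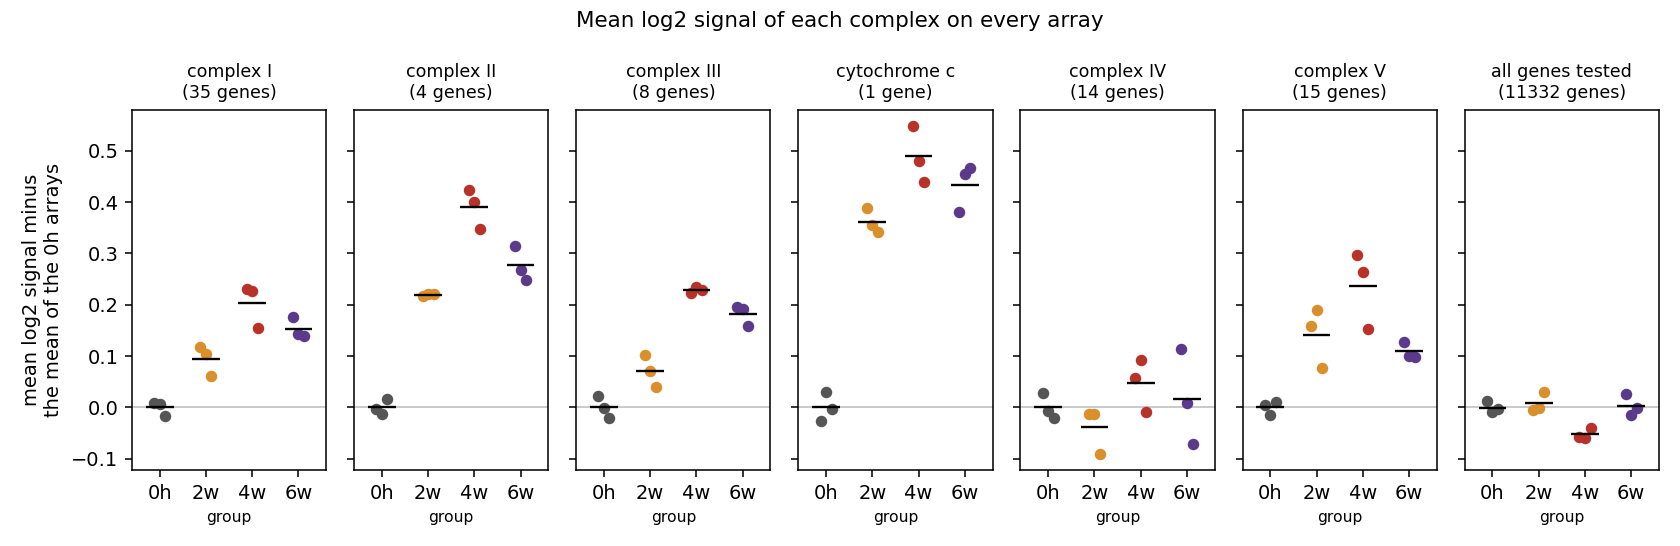
Mean log2 signal of the genes of each complex on every array, as the difference from the mean of the 0h arrays (vertical axis), at 0h, 2w, 4w and 6w (horizontal axis), with 1 panel per complex and 1 for all 11332 genes tested. Points are arrays and bars are group means. At 4w complex II reaches 0.39 and complex IV, whose mean includes Cox4i2 and Cox6c1 at low signal, 0.05.

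Of the 80 genes, 24 were higher in all 3 fed groups: 11 of complex I, 2 of complex II, 2 of complex III, cytochrome c, 2 of complex IV and 6 of complex V. A further 11 were higher at 4w only, 7 at 4w and 6w, and 4 at 2w and 4w. No gene was higher at 2w only or at 6w only, none was higher at one time and lower at another, and 30 were called in no fed group. The group mean was highest at 4w for 60 of the 80 genes and lowest at 0h for 56. The peak at 4w depends on scaling. With quantile normalization the median log2 change was 0.11 at 4w and 0.11 at 6w, and 0.00 between 6w and 4w. The shares of all genes and of bright genes with these patterns were not counted. All 3 comparisons use the same 0h arrays, and 31.6%, 38.6% and 32.2% of bright genes were higher at 2w, 4w and 6w. The count of 24 fell to 18 with quantile normalization, all 18 among the 24, to 15 without 0h replicate 1, to 15 without 0h replicate 3 and to 14 without 2w replicate 1.

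The promoters of the genes were read from RefSeq (GRCr8) because many of them moved together. Of the 83 genes, 71 had an entry, which covers 250 bases before and 50 after the start of the gene. Cores of 7 letters were searched on both strands for 4 factors or families whose sites are known from genes of the respiratory chain: GCATGCG for NRF1, CCGGAAG for the ETS family that includes GABPA, AAGGTCA for the nuclear receptor ESRRA and AAGATGG for YY1. The NRF1 core stood in 15.5% of the 71 promoters, in 4.13% of all 19005 protein-coding promoters and in 6.00% of the 8606 promoters of genes tested on the array. The ETS core stood in 31.0%, 11.2% and 17.4%, the ESRRA core in 15.5%, 3.70% and 3.0%, and the YY1 core in 23.9%, 7.58% and 8.51%, in the same order. At least 1 of the 4 cores was found in 42 of the 71.

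Among the 21 entries of genes higher in all 3 fed groups, 4 held the NRF1 core, 3 the ETS core, 5 the ESRRA core and 6 the YY1 core. Among the 25 entries of genes called in no fed group, 3 held the NRF1 core, 11 the ETS core, 3 the ESRRA core and 8 the YY1 core. Matches are letters in a window and no evidence of binding. The 250 bases before the start of 5 genes that were higher in all 3 fed groups, chosen so that each core is shown, and of Ndufb8, which was lower in all 3, are printed 5′ to 3′ on the strand of the gene, with the cores in capitals. The NRF1 core read on both strands overlaps itself, which gives runs of 8 capitals in Cycs, Uqcrc1 and Atp5j. In Cox8a both capital runs are the ETS core on the opposite strand, in Ndufs5 the run is the ESRRA core on the opposite strand, and in Atp5j the NRF1 core is followed by the YY1 core and the ETS core. The printed bases of Ndufb8 hold none of the 4. The windows of Ndufb8, Uqcrc1 and Cox8a also have a YY1 core that reaches into the 50 bases after the start, which are not printed. That of Cox8a has an ESRRA core there as well.
Cycs (chr4:80984768-80985017, minus strand): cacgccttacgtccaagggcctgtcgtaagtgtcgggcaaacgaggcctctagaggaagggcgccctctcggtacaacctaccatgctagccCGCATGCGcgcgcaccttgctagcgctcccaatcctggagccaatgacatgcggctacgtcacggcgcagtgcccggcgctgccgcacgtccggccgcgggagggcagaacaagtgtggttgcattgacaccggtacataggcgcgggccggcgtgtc
Uqcrc1 (chr8:118467973-118468222, plus strand): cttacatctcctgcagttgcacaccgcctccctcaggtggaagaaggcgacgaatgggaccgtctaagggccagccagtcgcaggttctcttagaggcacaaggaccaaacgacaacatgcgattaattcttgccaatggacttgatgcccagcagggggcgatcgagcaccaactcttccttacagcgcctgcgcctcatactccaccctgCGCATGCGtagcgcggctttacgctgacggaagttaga
Atp5j (chr11:37375102-37375351, minus strand): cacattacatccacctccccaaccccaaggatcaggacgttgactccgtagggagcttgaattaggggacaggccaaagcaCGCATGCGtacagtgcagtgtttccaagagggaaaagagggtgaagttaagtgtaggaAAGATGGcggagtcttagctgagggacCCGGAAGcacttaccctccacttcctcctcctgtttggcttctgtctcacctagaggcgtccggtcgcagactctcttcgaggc
Cox8a (chr1:213833624-213833873, minus strand): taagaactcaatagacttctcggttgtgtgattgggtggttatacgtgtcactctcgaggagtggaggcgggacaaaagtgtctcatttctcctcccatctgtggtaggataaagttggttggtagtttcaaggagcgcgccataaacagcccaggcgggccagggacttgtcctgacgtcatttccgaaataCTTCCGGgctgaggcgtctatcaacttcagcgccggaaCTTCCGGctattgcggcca
Ndufs5 (chr5:141264403-141264652, minus strand): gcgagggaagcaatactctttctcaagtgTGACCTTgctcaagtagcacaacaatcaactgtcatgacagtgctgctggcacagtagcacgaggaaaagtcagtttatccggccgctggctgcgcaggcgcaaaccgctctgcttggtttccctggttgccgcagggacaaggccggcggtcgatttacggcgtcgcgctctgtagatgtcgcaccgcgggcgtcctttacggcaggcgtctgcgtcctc
Ndufb8 (chr1:253362937-253363186, minus strand): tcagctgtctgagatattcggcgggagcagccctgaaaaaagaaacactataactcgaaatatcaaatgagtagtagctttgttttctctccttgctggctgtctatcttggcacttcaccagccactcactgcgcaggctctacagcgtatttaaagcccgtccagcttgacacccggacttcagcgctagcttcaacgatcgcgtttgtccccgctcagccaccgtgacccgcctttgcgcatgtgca

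Complex II oxidises succinate to fumarate and is the only one of the chain that is also an enzyme of the citric acid cycle. Sdhc, 1 of its 2 membrane anchors, had signals of 5868, 5558 and 6105 at 0h, 8305, 8166 and 8479 at 2w, 8733, 9044 and 9032 at 4w, and 8622, 7796 and 7444 at 6w. All 9 fed arrays lay above the 0h arrays. The log2 change was 0.51 ± 0.07 (adjusted p = 0.000398) at 2w, 0.61 ± 0.07 (adjusted p = 0.000126) at 4w and 0.44 ± 0.07 (adjusted p = 0.000882) at 6w. Sdha, the flavoprotein that binds succinate, had signals of 7221, 7365 and 7330.1 at 0h, 8216, 8576 and 8542 at 2w, 9944, 9635 and 9429 at 4w, and 8774, 8578 and 8449.8 at 6w. Its log2 changes were 0.21 ± 0.05 (adjusted p = 0.00952), 0.40 ± 0.05 (adjusted p = 0.000228) and 0.24 ± 0.05 (adjusted p = 0.00513), and no fed array overlapped 0h. The log2 ratios of Sdha in the authors' deposited table were smaller, with means of 0.01, 0.23 and 0.14.

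The iron-sulphur subunit Sdhb did not pass the threshold at 2w, at 0.16 ± 0.07 (adjusted p = 0.109), and was higher by 0.34 ± 0.07 (adjusted p = 0.00425) at 4w and 0.32 ± 0.07 (adjusted p = 0.00648) at 6w. Sdhd, the other membrane anchor, had a log2 change of 0.00 ± 0.05 (adjusted p = 0.994) at 2w and 0.11 ± 0.05 (adjusted p = 0.0992) at 6w, neither past the threshold. Only its 4w value passed, at 0.20 ± 0.05 (adjusted p = 0.00763), and with quantile normalization that change was 0.04 (adjusted p = 0.556).

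In complex I, Ndufab1, Ndufv2 and Ndufs3 were among the genes that rose most. Ndufab1, the mitochondrial acyl carrier protein, which serves fatty acid synthesis in mitochondria and is also a complex I subunit, had signals of 5559.9, 6112 and 5711 at 0h, 8611, 8841 and 7939.9 at 2w, 8251, 8267 and 7349.8 at 4w, and 8046, 7745 and 7770.2 at 6w. The fed arrays did not overlap 0h, and the log2 change was 0.55 ± 0.07 (adjusted p = 0.000379) at 2w, 0.46 ± 0.07 (adjusted p = 0.001) at 4w and 0.44 ± 0.07 (adjusted p = 0.00131) at 6w. Ndufv2, an iron-sulphur subunit of the NADH-binding module, had signals of 5929.5, 5949 and 5624 at 0h, 7220.3, 6541 and 7283 at 2w, 8398, 8311 and 9103 at 4w, and 8230.1, 7773 and 7359 at 6w. Its log2 change was 0.26 ± 0.07 (adjusted p = 0.0176) at 2w, 0.56 ± 0.07 (adjusted p = 0.000289) at 4w and 0.42 ± 0.07 (adjusted p = 0.00171) at 6w. The 2w call of Ndufv2 was lost without 0h replicate 3 and without 2w replicate 1 or 3 (adjusted p of 0.0579 to 0.0613).

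Ndufs3, a core subunit of the arm that leads electrons to ubiquinone, had signals of 3208, 3023 and 3138 at 0h, 4441, 3811 and 3778 at 2w, 4391, 4371 and 4134 at 4w, and 4386, 4428 and 4417 at 6w. All fed arrays lay above 0h, with log2 changes of 0.36 ± 0.07 (adjusted p = 0.00407), 0.46 ± 0.07 (adjusted p = 0.000911) and 0.50 ± 0.07 (adjusted p = 0.000617) at 2w, 4w and 6w. Ndufs1, the large iron-sulphur subunit, was higher at 4w only, by 0.27 ± 0.05 (adjusted p = 0.004). Ndufv1, the subunit that binds NADH itself, was called at no time: its log2 changes were -0.09, 0.08 and 0.00 with a standard error of 0.06.

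A pair of complex I genes went the other way. Ndufb8, an accessory subunit of the membrane arm, had signals of 1292, 1053 and 1079 at 0h, 690.8, 805.7 and 767.4 at 2w, 835.8, 724.0 and 726.9 at 4w, and 885.0, 737.1 and 695.4 at 6w. It was the 1 gene lower in all 3 fed groups, without overlap, with log2 changes of -0.59 ± 0.12 (adjusted p = 0.00459), -0.58 ± 0.12 (adjusted p = 0.00485) and -0.56 ± 0.12 (adjusted p = 0.0059). Ndufa5, an accessory subunit of the peripheral arm, had signals of 1732, 1370.0 and 1266 at 0h, 880.2, 745.5 and 803.1 at 2w, 1208, 1351 and 1178 at 4w, and 1229, 1362 and 1306 at 6w. The 2w arrays were the lowest and did not overlap 0h, with a log2 change of -0.84 ± 0.12 (adjusted p = 0.000689), while the 4w and 6w arrays overlapped 0h. The authors' deposited table gives a mean log2 ratio of -0.06 for Ndufa5 at 2w, and means of 0.37 at 4w and 0.30 at 6w, opposite in sign to the changes of the signals at those times. Both the size of the drop and the later direction of Ndufa5 therefore rest on the signals used.

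Ndufv3, an accessory subunit next to the NADH-binding site, was measured by a bright and a dim probe set that went opposite ways. The bright one had signals of 4605, 5051 and 4637 at 0h, 6655, 6303 and 6124 at 2w, 6404, 6735 and 6164 at 4w, and 5987, 5263 and 5327 at 6w, and its log2 change was 0.42 ± 0.07 (adjusted p = 0.00209) at 2w, 0.43 ± 0.07 (adjusted p = 0.00156) at 4w and 0.21 ± 0.07 (adjusted p = 0.052) at 6w. The dim one had mean log2 signals of 8.68 at 0h, 8.07 at 2w, 8.25 at 4w and 7.84 at 6w. Fitted on its own with adjustment over all probe sets, it was lower by -0.60 ± 0.14 (adjusted p = 0.0136) at 2w, -0.43 ± 0.14 (adjusted p = 0.0552) at 4w and -0.84 ± 0.14 (adjusted p = 0.00274) at 6w. The counts of genes higher at 2w and 4w include Ndufv3 on its bright probe set, and its direction as a gene cannot be read from these probe sets. Of the 12 genes with more than 1 probe set it was the 1 whose probe sets were called in opposite directions; the probe sets of Cycs were both higher in all 3 fed groups.

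**Figure D3:**
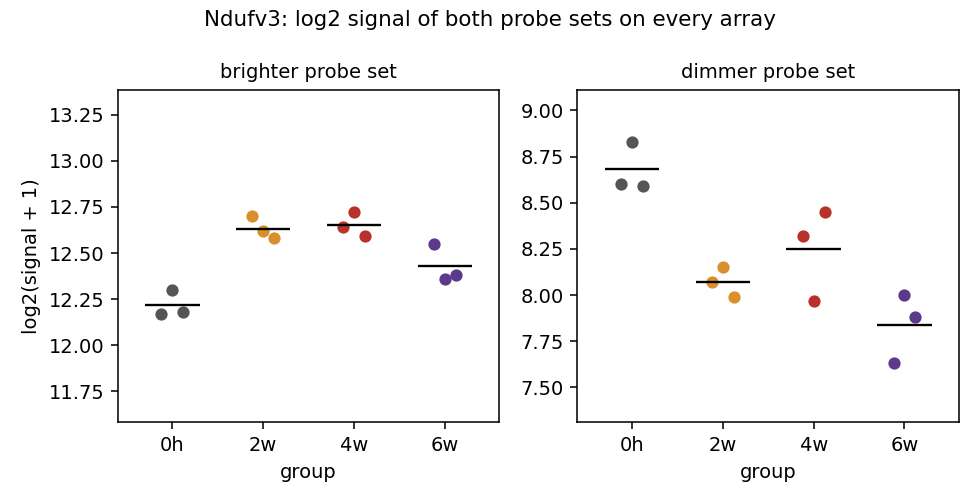
Log2(signal + 1) of the brighter (left) and the dimmer (right) probe set of Ndufv3 on every array (vertical axis) at 0h, 2w, 4w and 6w (horizontal axis). Points are arrays and bars group means; the brighter one rises to 12.65 at 4w, against 12.22 at 0h, and the dimmer one falls to 7.84 at 6w, against 8.68 at 0h.

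Complex III passes electrons from ubiquinol to cytochrome c. Uqcrfs1, its Rieske iron-sulphur protein, had signals of 8353, 8163 and 8291 at 0h, 8971, 8409 and 8676 at 2w, 10436, 10209.7 and 10032 at 4w, and 10820.3, 10866 and 10811 at 6w. Its log2 change at 2w was 0.07 ± 0.05 (adjusted p = 0.308), not past the threshold although the arrays did not overlap, followed by 0.31 ± 0.05 (adjusted p = 0.00108) at 4w and 0.39 ± 0.05 (adjusted p = 0.000275) at 6w. Uqcrc1, a core protein, was higher by 0.29 ± 0.05 (adjusted p = 0.00244), 0.31 ± 0.05 (adjusted p = 0.00157) and 0.39 ± 0.05 (adjusted p = 0.00052), and Cyc1, the haem protein that hands electrons to cytochrome c, by 0.19 ± 0.06 (adjusted p = 0.0358), 0.28 ± 0.06 (adjusted p = 0.00571) and 0.22 ± 0.06 (adjusted p = 0.0204). The 2w call of Cyc1 was lost with quantile normalization (adjusted p = 0.0703), with median centring (0.0551), with no filter (0.0540), without 0h replicate 1 or 3, without any single 2w array and without 6w replicate 2, and its 6w call without replicate 1 or 3 of 0h or replicate 1 or 2 of 6w. Uqcrc2, the partner core protein of Uqcrc1, had signals of 10157, 8834 and 9518 at 0h, 8053, 7609.5 and 8104 at 2w, 10244, 9856 and 10244 at 4w, and 8840.3, 9744 and 9479 at 6w. Its 2w arrays all lay below 0h, with a log2 change of -0.26 ± 0.07 (adjusted p = 0.016), and its changes at 4w and 6w were 0.09 and -0.02 with a standard error of 0.07. The call at 2w was lost without 0h replicate 1 (adjusted p = 0.0596), without 2w replicate 2 (adjusted p = 0.0600) and with the mean of both probe sets (adjusted p = 0.0871).

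Cytochrome c, Cycs, shuttles electrons between complexes III and IV and is also released from mitochondria in apoptosis. Its signals were 10398, 10805 and 10551 at 0h, 13846, 13545 and 13411 at 2w, 15469.8, 14764 and 14346 at 4w, and 13768, 14501 and 14634 at 6w. The fed arrays did not overlap 0h, and the log2 change was 0.36 ± 0.05 (adjusted p = 0.000765) at 2w, 0.49 ± 0.05 (adjusted p = 0.000124) at 4w and 0.43 ± 0.05 (adjusted p = 0.000255) at 6w. Its promoter is the one with the NRF1 core printed first.

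In complex IV, cytochrome c oxidase, 8 of the 14 tested genes were called in no fed group, against 12 of 35 in complex I, 2 of 8 in complex III and 5 of 15 in complex V. Cox4i1, the ubiquitous isoform of its subunit IV, had signals of 18439, 20369 and 18475 at 0h, 20226, 19633 and 19336 at 2w, 20575, 20425 and 19516 at 4w, and 20232, 19274 and 18395 at 6w. The groups overlapped and the log2 changes were 0.05, 0.08 and 0.02 with a standard error of 0.06. Cox8a, the isoform of subunit VIII found in liver, was an exception, with signals of 10832, 10868 and 10408 at 0h, 14116, 14071 and 13253 at 2w, 13949, 14136 and 13817 at 4w, and 14038, 13220.4 and 13099 at 6w and no overlap with 0h. Its log2 changes were 0.37 ± 0.05 (adjusted p = 0.000744), 0.38 ± 0.05 (adjusted p = 0.000522) and 0.33 ± 0.05 (adjusted p = 0.00136). Cox5a was higher by 0.29 ± 0.07 (adjusted p = 0.0113), 0.24 ± 0.07 (adjusted p = 0.0228) and 0.26 ± 0.07 (adjusted p = 0.0186) on its bright probe set, whereas the dim one gave -0.19, -0.14 and -0.25, none past the threshold (adjusted p of 0.525 to 0.722). With the mean of both probe sets the changes were 0.05, 0.05 and 0.00. The 4w call was also lost with quantile normalization, at 0.07 (adjusted p = 0.400), without 0h replicate 2 and without 4w replicate 1 or 2, and the 6w call without 0h replicate 2 and without 6w replicate 1. In the authors' deposited table the mean log2 ratios of Cox5a were 0.16, 0.16 and 0.13.

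Ndufa4, first described as a complex I subunit and now counted with complex IV, was called at 4w, at 0.24 ± 0.05 (adjusted p = 0.00506), and at 6w, at 0.17 ± 0.05 (adjusted p = 0.0332), but not at 2w, at -0.04 ± 0.05 (adjusted p = 0.581). With quantile normalization its 4w change was 0.11 (adjusted p = 0.129), and its 6w call was lost with no filter, without 0h replicate 2 or 3 and without any single 6w array (adjusted p of 0.0516 to 0.102). Cox6a1, the non-muscle isoform of subunit VIa, was higher by 0.28 ± 0.05 (adjusted p = 0.0029) at 4w and 0.22 ± 0.05 (adjusted p = 0.01) at 6w. Cox7a2 passed at 4w only, at 0.23 ± 0.07 (adjusted p = 0.0249), and not with quantile normalization, at 0.08 (adjusted p = 0.299), nor without replicate 1 or 3 of 0h or replicate 1 or 2 of 4w (adjusted p of 0.0564 to 0.0871). Cox7a2l, a relative of subunit VIIa known for joining complexes III and IV into supercomplexes, had signals of 3952, 3628 and 4189 at 0h, 3350.4, 3353 and 3434 at 2w, 3549.9, 3501 and 3807 at 4w, and 3309, 3455 and 3431 at 6w. It was lower at 2w, by -0.21 ± 0.06 (adjusted p = 0.033), and at 6w, by -0.20 ± 0.06 (adjusted p = 0.0392). Neither call held with median centring (adjusted p of 0.0891 and 0.141), nor without 0h replicate 1 (0.0862 and 0.0998), without 0h replicate 3 (0.111 and 0.131) or without any single 2w array; the 6w call was also lost without 4w replicate 1, without any single 6w array and with no filter.

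The remaining complex IV genes included tissue isoforms at low signal. Cox4i2, the lung isoform of subunit IV, had signals of 73.4, 72.1 and 72.7 at 0h, 56.1, 70.7 and 40.3 at 2w, 46.2, 56.0 and 29.4 at 4w, and 80.2, 62.6 and 40.3 at 6w, under the 30th percentile of the array on 1 array of 2w, 2 of 4w and 1 of 6w. Its log2 changes of -0.42, -0.76 and -0.30 (standard error 0.30) did not pass the threshold. Cox6c1, which is now annotated as a pseudogene of Cox6c and may share probes with it, had log2 changes of -0.52, -0.36 and -0.39, none past the threshold.

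Complex V makes ATP in its catalytic head, which alternates alpha and beta subunits around a central stalk. Atp5b, the catalytic beta subunit, had signals of 13794, 15352 and 14432 at 0h, 18340.1, 18266 and 17578 at 2w, 20149, 17417 and 18368 at 4w, and 19188, 17669.5 and 17814 at 6w. All fed arrays lay above 0h, with log2 changes of 0.32 ± 0.07 (adjusted p = 0.00857), 0.36 ± 0.07 (adjusted p = 0.00408) and 0.33 ± 0.07 (adjusted p = 0.00704). Atp5a1, the alpha subunit, had signals of 13167, 13688 and 13267 at 0h, 12159, 12853 and 12196 at 2w, 15065, 14921 and 14249 at 4w, and 12778, 12649 and 12636 at 6w. Its changes of -0.11 ± 0.05 (adjusted p = 0.131), 0.14 ± 0.05 (adjusted p = 0.058) and -0.08 ± 0.05 (adjusted p = 0.3) did not pass the threshold, although the arrays lay wholly below 0h at 2w and 6w and wholly above at 4w. With quantile normalization Atp5a1 was lower at 2w, by -0.18 (adjusted p = 0.0131), and at 6w, by -0.15 (adjusted p = 0.0317), and with median centring higher at 4w, by 0.22 (adjusted p = 0.0436). Atp5c1, the gamma subunit of the stalk, passed at 4w only, at 0.23 ± 0.05 (adjusted p = 0.00689), and not with quantile normalization, at 0.08 (adjusted p = 0.230). With the mean of its probe sets the 4w change was -0.16 (adjusted p = 0.839), opposite in sign. The second probe set is dim, with a mean log2 signal of 6.18 and 4w values of 6.89, 6.15 and 2.81. Its own 4w change was -0.54 ± 0.88.

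The genes of the membrane ring of complex V, Atp5g1, Atp5g2 and Atp5g3, encode the same mature subunit c, may share probe sequence, and were each higher in all 3 fed groups. Their log2 changes were 0.23, 0.32 and 0.15 for Atp5g1 at 2w, 4w and 6w, 0.28, 0.35 and 0.30 for Atp5g2, and 0.22, 0.25 and 0.16 for Atp5g3. All 3 dropped out of the genes higher at every time with quantile normalization, with median centring and without any single 0h array. Among the other complex V genes Atp5j and Atp5d were higher at each time, by 0.31, 0.43 and 0.33 and by 0.28, 0.25 and 0.25.

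**Figure D4:**
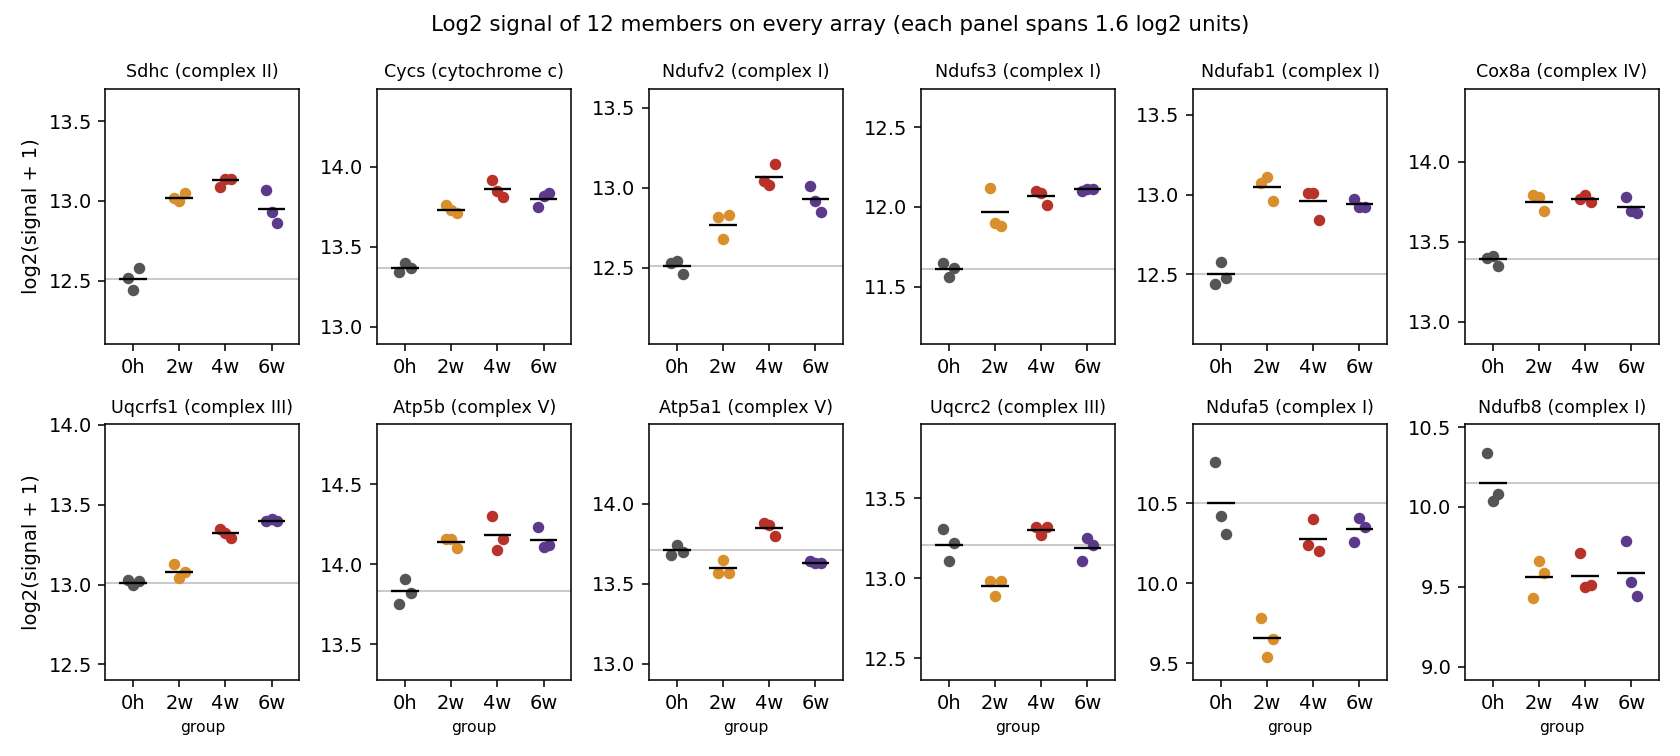
Log2(signal + 1) of 12 oxidative phosphorylation genes on every array (vertical axis, each panel spanning the same number of log2 units) at 0h, 2w, 4w and 6w (horizontal axis). Points are arrays, bars group means and the grey line the 0h mean; the fed arrays of Sdhc, Cycs, Ndufv2, Ndufs3, Ndufab1, Cox8a and Atp5b all lie above 0h, those of Ndufb8 all lie below, and Ndufa5 and Uqcrc2 are lowest at 2w.

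The fed groups differed from each other in fewer genes. Between 4w and 2w, 14 of the 80 genes were higher at 4w and 0 lower, beside 5.13% and 7.99% of all genes tested, with a median log2 difference of 0.10 against -0.03 for all genes (limma). Of the 71 bright genes among them 18.3% were higher (median 0.12), beside 13.8% of all 1976 bright genes (median 0.06), so the share lay near that of other bright genes. At an unadjusted p under 0.05, 26 of the 80 were higher and 0 lower, but the unadjusted share of all genes was not counted. Of the 14, 4 belong to complex III, 3 to complex I, 3 to complex V, 2 to complex II and 2 to complex IV. Ndufa5, which was lowest at 2w, was 0.62 ± 0.12 (adjusted p = 0.00779) higher at 4w, and Uqcrc2 0.35 ± 0.07 (adjusted p = 0.0076) higher, or 0.19 (adjusted p = 0.161) with the mean of its probe sets. The count was 6 with quantile normalization, 22 with limma's trend and robust options, and 9 without 2w replicate 1, without 2w replicate 3 or without 4w replicate 2.

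Between 6w and 4w, 0 of the 80 genes were higher and 2 lower at an adjusted p under 0.05, beside 6.27% and 4.13% of all genes, and the median difference was -0.06 against 0.02 for all genes (limma). Of the bright genes among them 2.82% were lower (median -0.07), whereas 11.8% of all bright genes were lower (median -0.06). At an unadjusted p under 0.05, 1 of the 80 was higher and 11 lower, again without a count over all genes. The 2 were Atp5a1, at -0.22 ± 0.05 (adjusted p = 0.0223), and Atp5c1, at -0.22 ± 0.05 (adjusted p = 0.0242). Neither was called with quantile normalization or median centring, nor without 4w replicate 1 or 2 or any single 6w array (adjusted p of 0.0504 to 0.0854 without an array). With trend and robust options 8 genes were lower and 1 higher at 6w than at 4w. Between 6w and 2w, 5 genes were higher at 6w and 0 lower, beside 4.80% and 5.78% of all genes: Ndufa5, Uqcrfs1, Uqcrc2, Ndufa4 and Ndufa6 (limma). Of the bright genes among them 5.63% were higher, beside 8.05% of all bright genes. At an unadjusted p under 0.05 the counts were 11 higher and 2 lower, also without a count over all genes. The values of Ndufa5 and Uqcrfs1 were 0.68 ± 0.12 (adjusted p = 0.00568) and 0.32 ± 0.05 (adjusted p = 0.00246). That count was 3 with median centring, 2 without 2w replicate 2 and 3 without 2w replicate 1, 2w replicate 3 or any single 6w array, and was 9 with trend and robust options, with 2 genes then lower.

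Genes that work beside the chain were counted by role, and their counts stand beside 15.5%, 14.3% and 14.7% of all genes called higher and 12.6%, 15.1% and 12.6% called lower at 2w, 4w and 6w, or 31.6%, 38.6% and 32.2% of bright genes called higher. Of 19 genes that feed electrons to ubiquinone or make it, 6, 9 and 10 were higher at 2w, 4w and 6w and 1, 3 and 1 lower (median log2 changes 0.13, 0.16 and 0.19). Coq9 and Coq6, which serve ubiquinone synthesis, were higher at each time: Coq9 by 0.63, 0.69 and 0.50 (standard error 0.07) and Coq6 by 0.53, 0.50 and 0.61 (standard error 0.06). Coq7 was higher by 0.73, 0.48 and 0.61 (standard error 0.15), and Coq5 by 0.60 at 4w and 0.57 at 6w (standard error 0.12). Coq10a, a ubiquinone-binding protein, was lower by -0.75, -0.59 and -0.84 (standard error 0.17), and Gpd2, the mitochondrial glycerol-3-phosphate dehydrogenase, was lower at 4w, by -0.74 ± 0.19.

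Of 26 tested assembly factors and regulators of the complexes, 6, 9 and 6 were higher and 1, 1 and 0 lower at 2w, 4w and 6w. Fam36a, now Cox20, an assembly factor of complex IV, was higher by 1.10, 1.36 and 0.73 (standard error 0.18), and Acn9, now Sdhaf3, an assembly factor of complex II, by 0.66, 0.66 and 0.73 (standard error 0.10). RGD1306917, another gene of this list, was higher by 0.33, 0.52 and 0.51. Atpif1, the inhibitor of ATP synthase, was higher at 4w alone, by 0.80 ± 0.06 (adjusted p = 9.53e-06), with changes of -0.12 and -0.10 at 2w and 6w. Acad9, an assembly factor of complex I, was higher at 2w, by 0.38, and at 4w, by 0.79 (standard error 0.09). Of 15 tested carriers and channels of nucleotides, phosphate and protons, 2, 4 and 3 were higher and 1, 0 and 0 lower; 11 of the 15 were bright genes, and the share called higher was at each time below that of all bright genes. Slc25a3, the phosphate carrier that supplies ATP synthase, was higher by 0.29, 0.34 and 0.24 (standard error 0.05), and Slc25a1, which exports citrate, by 0.60, 0.62 and 0.49 (standard error 0.05). Slc25a13, an aspartate and glutamate carrier, was lower at 2w, by -0.26, and the outer membrane channels Vdac1 and Vdac3 were higher at 4w, by 0.21 and 0.18, Vdac3 also at 6w, by 0.20.

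Of 17 genes of the citric acid cycle and pyruvate dehydrogenase, 7, 8 and 7 were higher and 2, 1 and 1 lower at 2w, 4w and 6w, and 12 of the 17 were bright genes. Ogdh was higher by 0.47, 0.39 and 0.42 and Sucla2 by 0.27, 0.42 and 0.41 (standard error 0.07 each), both enzymes upstream of succinate dehydrogenase. Dlst, a partner of Ogdh, was higher by 0.43, 0.24 and 0.38, and Idh3g, a subunit of isocitrate dehydrogenase, by 0.27, 0.39 and 0.37. Cs, citrate synthase, was higher at 2w, by 0.46, and at 6w, by 0.28. Pdhb, the beta subunit of pyruvate dehydrogenase, was lower by -0.50, -0.35 and -0.29 (standard error 0.07). Of 20 tested regulators of mitochondrial gene expression, 1, 5 and 5 were higher and 5, 5 and 4 lower, with medians of -0.15, -0.02 and 0.03. Pprc1, a coactivator of the PGC-1 family, was lower by -0.74, -1.26 and -0.86 (standard error 0.23), and Polg2, a subunit of the mitochondrial DNA polymerase, by -0.24, -0.60 and -0.69 (standard error 0.08). Hif1a, the hypoxia factor, was lower by -0.51, -0.45 and -0.28, and Sirt3, a mitochondrial deacetylase, by -0.40 at 2w and -0.64 at 4w. Myc was higher by 1.18, 0.77 and 0.45 (standard error 0.09), and Tfb1m, a mitochondrial rRNA methyltransferase, by 0.54 at 4w and 0.60 at 6w (standard error 0.17).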

How the data were processed

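Rat liver RNA was hybridised to 12 one-colour arrays, in 4 groups of 3. The deposited table holds signal intensities that the authors made from the scans with GCOS 2.0, per the submitters' processing notes. No further scaling was applied in the main fit. That choice matters for changes of this size: the count of genes higher at 4w was 46 as deposited, 28 with quantile normalization and 51 with median centring. The authors' deposited log2 ratios against 0h and the series matrix were used as alternatives only. Here log2(signal + 1) was taken, the brightest probe set kept for each of 13911 genes with 1 symbol, genes with a mean at or under the 30th percentile left out, and group means compared with limma 3.58.1 in R 4.3.3 (lmFit, eBayes, 8 residual degrees of freedom) with Benjamini-Hochberg adjustment over 11332 genes. Named genes were the largest non-overlapping calls of each comparison, core subunits, tissue isoforms, every gene called lower and genes whose probe sets disagreed. The values of 1 gene named by this rule are not reported here. The members and gene lists were chosen with earlier results of these data known. The level that defines bright genes and the fit per probe set were chosen after seeing the data. A fold on the log2(signal + 1) scale understates change at low signal. Cox4nb and Atp5sl were set apart as no subunit, although their symbols begin as those of complexes IV and V. One probe set that names both Ndufa10 and Ndufa10l1 was left out. Fits were tested on simulated data for 4w against 0h in which few of the 11332 genes changed. Changes of 0.3, 0.58 and 1 log2 units were recovered for 6 of 59, 35 of 75 and 41 of 66 genes, and 1 of 83 calls was false. A gene that was not called may therefore have changed. The changed genes were drawn from all genes tested, which vary more within groups than those of oxidative phosphorylation. The number of arrays limits the precision. Alternatives covered the pseudocount, scaling, filter, probe set choice, limma options, a replicate block, leaving out each array and the authors' values.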

Additional observations from a re-analysis of the deposited data

Results flagged for a closer look

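In 21 cases a test between 2 fed groups found a difference in an oxidative phosphorylation gene (limma, adjusted p under 0.05 over all genes). At 4w relative to 2w the log2 difference was 0.62 for Ndufa5, 0.35 for Uqcrc2, 0.35 for Cox7c, 0.31 for Atp5l, 0.30 for Ndufv2, 0.29 for Ndufa4 and 0.25 for Atp5a1. It was 0.24 for Uqcrfs1, 0.24 for Uqcrh, 0.22 for Ndufs1, 0.21 for Uqcrq, 0.20 for Atp5h, 0.20 for Sdha and 0.20 for Sdhd. At 6w relative to 4w it was -0.22 for Atp5a1 and -0.22 for Atp5c1. At 6w relative to 2w it was 0.68 for Ndufa5, 0.32 for Uqcrfs1, 0.27 for Ndufa6, 0.24 for Uqcrc2 and 0.21 for Ndufa4. All 14 differences between 4w and 2w were positive. Atp5a1, Cox7c and Uqcrh were called in no fed group against 0h.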

How the results depend on the processing

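Quantile normalization gave 28 genes higher at 4w, median log2 changes of 0.08 at 2w, 0.11 at 4w and 0.11 at 6w, 6 genes higher between 4w and 2w (median 0.04), and 1 higher and 0 lower between 6w and 4w (median 0.00). Median centring gave medians of 0.30 at 4w and 0.19 at 6w, 0.16 between 4w and 2w and -0.10 between 6w and 4w, with 1 gene lower at 6w, 0 lower between 6w and 4w and 3 higher between 6w and 2w. With no filter 1 gene was lower at 6w. With trend and robust options 22 were higher between 4w and 2w, 1 was higher and 8 lower between 6w and 4w, and 9 were higher and 2 lower between 6w and 2w. Same-numbered arrays did not deviate together (correlations of -0.025 to 0.078), which gives no sign of pairing by number but does not settle it. A replicate block in limma gave 2 genes lower at 4w, with 23 and 45 higher at 2w and 4w. It called Cox4i2 lower at 4w (-0.76, adjusted p = 0.0261). Leaving out 1 array at a time gave 17 to 29 genes higher and 2 to 5 lower at 2w, 36 to 46 and 1 to 2 at 4w, and 22 to 31 and 1 to 2 at 6w. It gave 9 to 14 higher and 0 lower between 4w and 2w, 0 higher and 0 to 2 lower between 6w and 4w, and 2 to 5 higher and 0 lower between 6w and 2w. The medians were then 0.10 to 0.13, 0.20 to 0.25 and 0.14 to 0.15 against 0h, 0.08 to 0.13 between 4w and 2w, -0.09 to -0.06 between 6w and 4w and 0.02 to 0.05 between 6w and 2w. All genes called were then 2474 to 3180, 2655 to 3297 and 2431 to 3122 against 0h, and 963 to 1402, 735 to 1103 and 769 to 1157 between fed groups, in the same order. Genes higher in all 3 fed groups numbered 14 to 25. The mean of the probe sets turned the sign of Ndufv3 at 2w (-0.09) and 6w (-0.31) and of Atp5c1 at 4w (-0.16) and between 6w and 4w (0.74). The second probe set of Atp5c1 is dim. Of 2037 values of named genes under other settings, 1890 kept their side of the threshold (14 of them uncalled values that differed in sign), 82 lost a call, 19 gained one, 42 without a test moved and 4 changed sign where at least 1 of the settings called them. Of the 42, 6 also differed in sign, all in the authors' deposited table: Ndufa5 at 4w (0.37) and 6w (0.30), Ndufv1 at 2w (0.03), Ndufa4 at 2w (0.10) and Cox4i1 at 2w (-0.02) and 6w (-0.08). Of 57 called values, 57 had the same sign in the authors' deposited table and 48 lay within 1.5 times. The cause was not tested. Dim probe sets such as Cox4i2 limit what the signal can show.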

Other observations

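Transcripts of the mitochondrial genome encode other subunits of the same complexes and were looked at after their values had been seen. The probe sets of mt-Co2 (complex IV), mt-Cytb (complex III), ND1 and ND3 (complex I) had mean log2 signals above 15 in every group. At 2w, 4w and 6w relative to 0h the log2 changes were 0.07, 0.07 and -0.06 for mt-Co2 (standard error 0.08), and 0.03, 0.11 and -0.06 for mt-Cytb (standard error 0.10). They were 0.05, 0.11 and -0.06 for ND1 (standard error 0.09) and 0.06, 0.13 and -0.02 for ND3 (standard error 0.08). None passed the threshold (limma, adjusted p of 0.282 to 0.907). The highest signal of an array was 48816.8 to 60209.6, so these probe sets lay near the top of the scale. Whether a change was hidden there was not tested. ND4 was too dim to be tested. Whether these changes differ from those of the nuclear genes was not tested.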
